A study of Rattus norvegicus with 24 samples.

Results

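Klf6, Dusp6 and Egr3 are genes whose transcripts can rise within minutes to hours of a stimulus, and they were followed here in microvessels of the rat brain cortex during acute liver failure. Every probe with 1 of these symbols as its only gene symbol in the platform annotation was taken, which gave 7 of 31099 probes, 3 for Klf6, 3 for Dusp6 and 1 for Egr3. The genes were picked with results of the hepatectomy comparison known, so their values in hepatectomy minus sham are given as a description with no test.

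Klf6 encodes a zinc finger transcription factor of the Krüppel-like family that is induced by vessel injury and serum. Dusp6 encodes a cytoplasmic phosphatase that removes phosphate from ERK kinases, and its transcription is itself switched on by ERK signalling, so its mRNA is commonly read as a measure of ERK activity. Egr3 encodes a zinc finger transcription factor of the early growth response family, which is induced by growth factors in endothelial cells and by activity in neurons.

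Total RNA of cortical microvessels was hybridised to 24 arrays, 8 in each of 3 groups. In the HEP group the portal vein was first joined to the vena cava by portocaval anastomosis, and 24 hours later came total hepatectomy, so that no liver remained. In the HAL group the same anastomosis was followed 24 hours later by ligation of the hepatic artery, which leaves a liver without its arterial supply in place. The Sham group had a mock surgery in 2 steps, with no anastomosis, and microvessels were isolated 8 to 12 hours after the last surgery in all groups. Strain, sex and age are not given in the sources used here, and the labels do not say that the samples of a group came from separate animals, so p-values measure the spread between these samples. Microvessels hold several cell types, and fewer cells of a type cannot be told apart from less RNA per cell.

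The deposited cells hold only the decimals of the log2 signals, written as whole numbers. The integer part is missing, as are zeros at either end of the decimals. A signal below 10 then gives up to 9 digits and a signal from 10 on up to 8 digits. Probes with 1 to 14 cells of 9 digits were taken to lie near 10, and there 9-digit cells were given the integer part 9 and 8-digit cells the integer part 10. Shorter cells were left as missing. Klf6 probe 1387060_at had 1 such cell, Dusp6 probe 1387024_at had 5 and Egr3 probe 1369545_at had 14, the upper edge of the range. Klf6 probe 1388986_at had 0, while 1395557_at of Klf6 had 20 and 1377064_at and 1382778_at of Dusp6 had 18 and 21. For these 4 probes only the decimals are known, and a difference between groups is known only up to whole units.

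**Figure D1:**
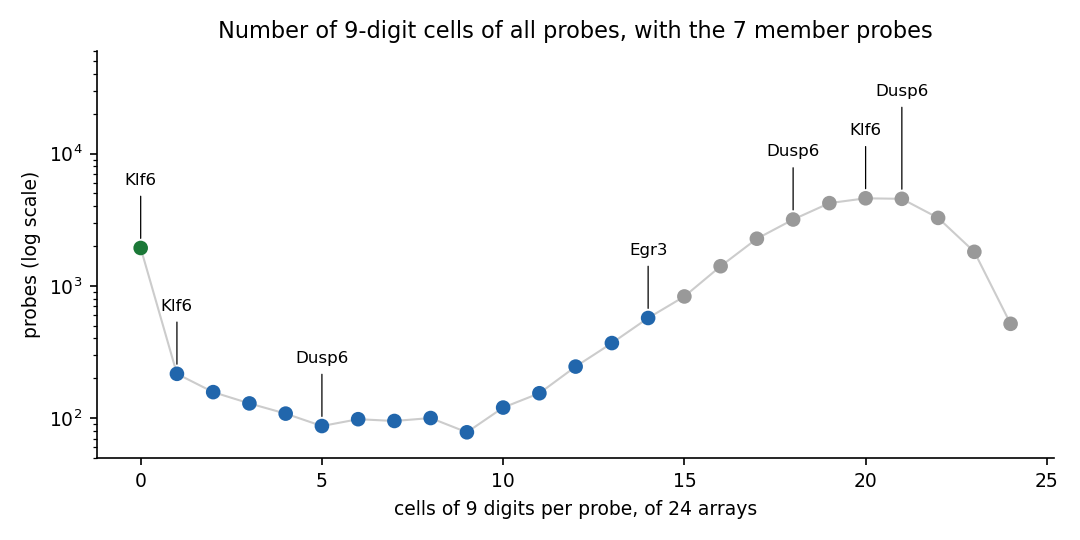
Number of probes (log scale) by how many of their 24 cells have 9 digits, with the 7 probes of Klf6, Dusp6 and Egr3 marked; blue points are probes taken as near 10, the green point those with no such cell and grey points those taken as below 10. Egr3 stands at 14 cells, where the count of probes climbs towards the large group below 10, with 571 probes at 14 and 831 at 15.

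The promoters of Klf6 and Dusp6 are shown because early response genes are known for their control at transcription. They are RefSeq sequences of the rat assembly GRCr8, 250 bases before to 50 bases after the start that the RefSeq table uses, which for Dusp6 lies inside the annotated gene. The Egr3 promoter is not shown. Capitals mark matches, on either strand, to 7 motifs: the CArG box of serum response factor, TGACG of the cAMP response element, TGANTCA of AP-1, CCGGAA of ETS factors, CCAAT, GCGNGGGCG of EGR factors and the E box CACGTG. The Klf6 window is chr17:69458429-69458728 on the minus strand and the Dusp6 window is chr7:35979354-35979653 on the plus strand.
Klf6: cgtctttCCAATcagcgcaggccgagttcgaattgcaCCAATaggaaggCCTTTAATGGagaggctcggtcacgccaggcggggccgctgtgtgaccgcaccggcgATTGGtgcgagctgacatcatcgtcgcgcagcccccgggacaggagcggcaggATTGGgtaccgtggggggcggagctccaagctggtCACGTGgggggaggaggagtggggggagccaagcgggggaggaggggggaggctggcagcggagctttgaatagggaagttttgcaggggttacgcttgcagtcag
Dusp6: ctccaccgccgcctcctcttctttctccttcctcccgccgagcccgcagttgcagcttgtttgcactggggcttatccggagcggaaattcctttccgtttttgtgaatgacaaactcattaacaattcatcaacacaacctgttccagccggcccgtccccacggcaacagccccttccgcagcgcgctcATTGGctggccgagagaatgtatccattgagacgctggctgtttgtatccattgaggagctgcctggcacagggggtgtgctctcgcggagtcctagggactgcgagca
The Klf6 window held 1 CArG box, which 1.64% of 33469 promoter windows hold, 4 CCAAT matches, which 37.5% hold at least once, and 1 E box, found in 6.42%. The Dusp6 window held 1 CCAAT match and none of the other 6 motifs, of which TGACG is in 21.2% of windows, CCGGAA in 5004 windows, TGANTCA in 7.33% and GCGNGGGCG in 4.98%. None of these last 4 letter strings was in the Klf6 window. No motif overlapped another there.

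Klf6 was read higher after hepatectomy than after sham surgery by its probe near 10. On 1387060_at the readings of the 7 HEP arrays were 10.57 at the lowest, 10.85 at the median and 10.99 at the highest, against 9.58, 10.24 and 10.39 on the 8 Sham arrays. All 7 HEP readings lay above all Sham readings. The groups averaged 10.81 ± 0.17 in HEP (SD, n = 7) and 10.16 ± 0.26 in Sham (SD, n = 8), a difference of 0.65 on the log2 scale (SE 0.14, 95% interval 0.36 to 0.94). The same absence of overlap, in the same direction, was found in 0.277% of the 2526 probes near 10. As the genes were chosen with this contrast known, nothing is read from that share.

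The 4 HAL readings of Klf6 were 10.57, 10.16, 10.16 and 10.71, with a mean of 10.40 ± 0.28 (SD, n = 4), and lay partly among the Sham readings and partly above them. HAL minus Sham was 0.24 (SE 0.16, 95% interval -0.10 to 0.58), which did not pass the test (limma, adjusted p = 0.509). It was 0.14 without HAL array 7 and 0.16 without Sham array 3, and at most 0.32 with any array left out. HEP minus HAL was 0.41 (SE 0.17, 95% interval 0.06 to 0.76) and did not pass either (limma, adjusted p = 0.570), and 5 of 7 HEP readings lay above all HAL readings. The order of the means was thus HEP, HAL, Sham, and neither neighbouring pair passed the test. The HEP arrays in HEP minus HAL and the Sham arrays in HAL minus Sham are those with which the genes were chosen. For Klf6, Dusp6 and Egr3 the p-values of these comparisons thus support no difference.

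Klf6 had cells too short to read on HEP array 1 and on HAL arrays 2, 4, 6 and 8. For a signal from 10 to 11, with the lost zeros in front or at the end, the HEP cell stands for 10.09 or 10.94, so 1 of its readings would lie among the Sham arrays. A signal below 10 that lost zeros in front would instead lie just above 9, below all Sham readings of Klf6 and Dusp6. A signal from 11 on would lie above all of them, and the ranges given for both genes leave both cases out. The HAL cells stand for values of 10 to 10.05 or for 10.22 to 10.50. Taking, of these values from 10 to 11, those that give the lowest and the highest difference, HEP minus Sham ran from 0.56 to 0.66. HAL minus Sham ran from 0.05 to 0.21 and HEP minus HAL from 0.35 to 0.61. The HAL minus Sham of 0.24 from the read cells alone lies above its range.

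Dusp6 was likewise read higher in HEP than in Sham by its probe near 10. On 1387024_at the 6 HEP readings were 10.50 at the lowest, 10.70 at the median and 10.81 at the highest, against 9.65, 10.19 and 10.45 on 7 Sham arrays. These readings did not overlap, although the gap between the lowest HEP reading and the highest Sham reading was narrow. The means were 10.67 ± 0.12 in HEP (SD, n = 6) and 10.08 ± 0.33 in Sham (SD, n = 7), a difference of 0.60 (SE 0.16, 95% interval 0.26 to 0.93). In digits alone, 0 HEP cells, 2 HAL cells and 3 Sham cells of this probe had 9 digits.

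The 5 HAL readings of Dusp6 were 10.26, 9.76, 9.90, 10.38 and 10.35, with a mean of 10.13 ± 0.28 (SD, n = 5). They lay within the Sham range, and HAL minus Sham was 0.05 (SE 0.17, 95% interval -0.30 to 0.41; limma, adjusted p = 0.932). Of the 3 members near 10, counting Klf6, Dusp6 and Egr3 1 probe each, 0 passed the test in HAL minus Sham, where 3.72% of 2526 probes did. All 6 HEP readings lay above all 5 HAL readings, an absence of overlap that 0.396% of the probes near 10 shared in this direction. The HEP readings are those with which Dusp6 was chosen, so nothing is read from that share or from the size of the difference. HEP minus HAL was 0.54 (SE 0.17, 95% interval 0.18 to 0.91) and did not pass the test (limma, adjusted p = 0.490), in a comparison in which 0 of 2526 probes did and 216 had an unadjusted p under 0.05. HAL arrays 2 and 5, which gave its 2 lowest readings, also had the lowest array medians, and without them and Sham array 3 the difference was 0.34.

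For Dusp6 the unread cells bear on the separation of the groups. For signals from 10 to 11, HEP array 2 stands for 10.03 or 10.33, and by either value it would lie among the Sham readings. A signal from 11 on would instead lie above them. HEP array 8 stands for 10.09 or 10.89, and the short cells of HAL arrays 3, 4 and 6 for 10.01 to 10.05 or for 10.41 to 10.87. Sham array 1 stands for 10.08 or 10.84. Over the readings from 10 to 11, HEP minus Sham ran from 0.35 to 0.58, HAL minus Sham from -0.08 to 0.23 and HEP minus HAL from 0.22 to 0.56. The HEP minus Sham of 0.60 from the read cells alone lies above its range.

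**Figure D2:**
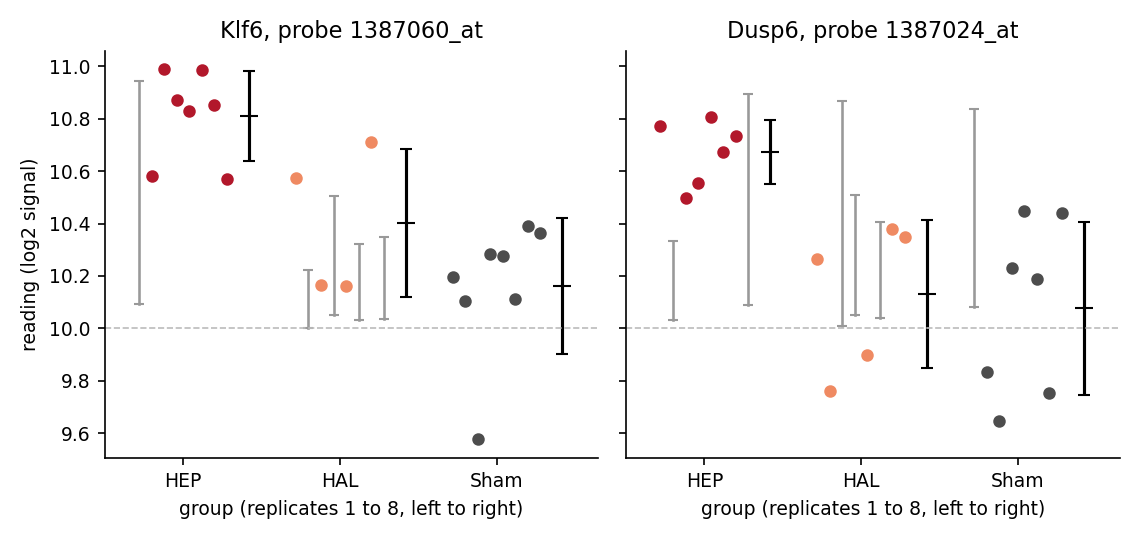
Readings (log2 signal) of Klf6 and Dusp6 on the arrays of HEP, HAL and Sham, by replicate number from left to right; points are readings, black bars are mean and SD, and grey bars join the 2 values of a short cell if its signal is from 10 to 11, with zeros lost in front or at the end. HEP points lie above Sham points for both genes, and the grey bar of HEP array 2 for Dusp6 lies within the Sham range.

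Across the 15 arrays on which both probes were read, Klf6 and Dusp6 had a Pearson r of 0.82, and of 0.58 after the group means were taken off. These arrays share their normalisation, and the value is given as a description. By the same measure the probes most like Klf6, of 524 probes with at least 18 shared arrays, were Tnfrsf1a (r 0.81 over 19 arrays), Hopx (0.80 over 18) and Lasp1 (0.79 over 18). For Dusp6, of 207 such probes, they were Ppm1l (0.78), Lrrc59 (0.76) and Gpat4 (0.71), over 18 arrays each.

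The other probes of both genes were read by their decimals. On Klf6 probe 1388986_at, which has no cell of 9 digits, the mean decimals were 0.22 ± 0.26 in HEP (SD, n = 8), 0.29 ± 0.25 in HAL (SD, n = 6) and 0.38 ± 0.40 in Sham (SD, n = 5). Its decimals hardly clustered on the circle of 1 log2 unit, with a resultant length of 0.0789 where 1 would mean identical decimals, so its group means carry little information. On Klf6 probe 1395557_at, with a resultant length of 0.577, they were 0.58 ± 0.18 in HEP (SD, n = 7), 0.39 ± 0.13 in HAL (SD, n = 7) and 0.49 ± 0.17 in Sham (SD, n = 6). HEP minus Sham was thus -0.16 and 0.08 on these Klf6 probes, against 0.65 on 1387060_at. The groups overlapped on both. HEP minus HAL on 1395557_at was 0.18 (limma, adjusted p = 0.761).

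The Dusp6 probes below 10 had no settled direction. On 1377064_at the mean decimals were 0.77 ± 0.17 in HEP (SD, n = 5), 0.69 ± 0.22 in HAL (SD, n = 7) and 0.50 ± 0.34 in Sham (SD, n = 6). On 1382778_at they were 0.83 ± 0.26 in HEP, 0.76 ± 0.29 in HAL and 0.62 ± 0.21 in Sham (SD, n = 7 each). HEP minus Sham was 0.28 and 0.21, and HAL minus Sham was 0.20 and 0.14 (limma, adjusted p = 0.593 and 0.727). On 1377064_at the sign turned when short cells were read with leading zeros, to -0.27 in HEP minus Sham and -0.39 in HAL minus Sham, and HEP minus Sham was 0.009 with decimals placed around the Sham mean. With resultant lengths of 0.180 and 0.191 these decimals were widely spread too, and the groups overlapped. None of the 3 probes below 10 passed in HAL minus Sham or in HEP minus HAL, where 0.105% and 0% of 26630 probes did, and the Klf6 probe with no cell of 9 digits did not pass where 1.19% and 0% of 1933 did.

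**Figure D3:**
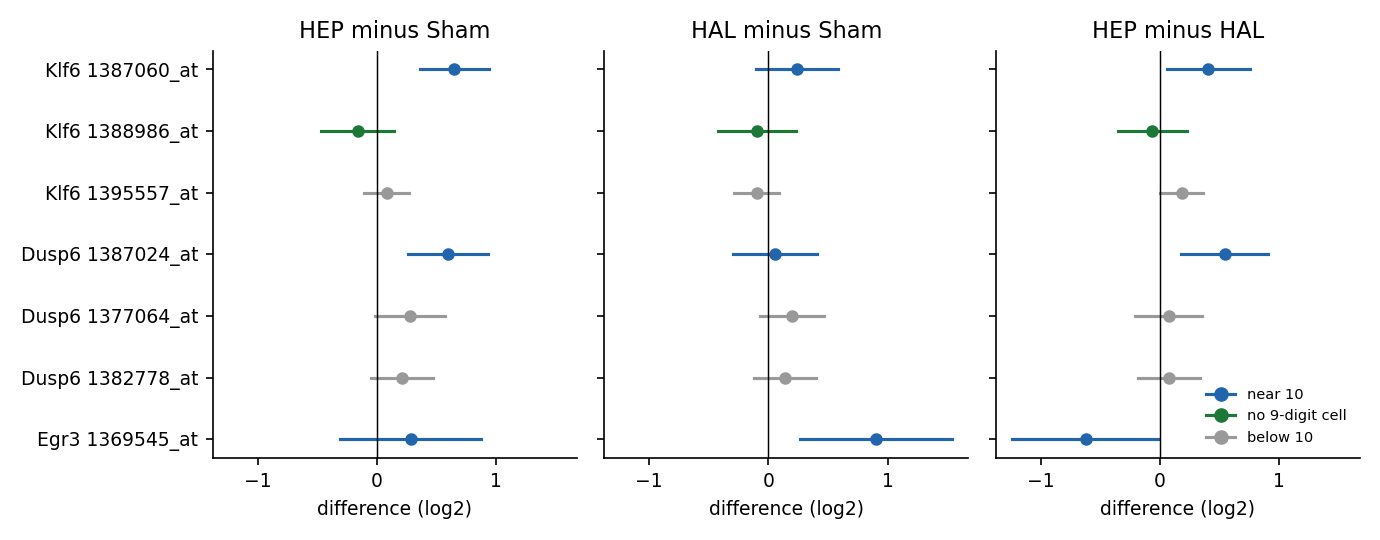
Differences of mean readings (log2, bars are 95% intervals) of the 7 probes in HEP minus Sham, HAL minus Sham and HEP minus HAL, coloured by how the probe was read; those of green and grey probes are known only up to whole units. Klf6 1387060_at and Dusp6 1387024_at stand at 0.65 and 0.60 in HEP minus Sham, and the other Klf6 and Dusp6 probes lie between -0.16 and 0.28.

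The direction of Egr3 depended on how its cells were read. Read near 10, its HEP readings were 9.21 at the lowest, 9.33 at the median and 10.96 at the highest (n = 8). Its HAL readings were 9.16, 10.27 and 10.97 (n = 6), and its Sham readings 9.12, 9.18 and 10.32 (n = 7). The HAL arrays were spread over the whole range, while 6 of 8 HEP cells and 6 of 7 Sham readings lay below 10.

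The mean of Egr3 in this reading was 9.63 ± 0.62 in HEP (SD, n = 8), 10.25 ± 0.69 in HAL (SD, n = 6) and 9.34 ± 0.44 in Sham (SD, n = 7). HAL minus Sham was 0.90 (SE 0.31), which did not pass the test (limma, adjusted p = 0.107) but did without Sham array 3, at 1.07 (limma, adjusted p = 0.0492), or without HAL array 8, at 1.12 (limma, adjusted p = 0.0374). HEP minus Sham was 0.28, and HEP minus HAL was -0.62 (limma, adjusted p = 0.581). Without the 3 arrays of the lowest medians HAL minus Sham was 1.20 (limma, adjusted p = 0.0735). With the short cells read from 10 to 11, HAL minus Sham ran from 0.71 to 0.88, and the 0.90 from the read cells alone lies above that. The Sham arrays took part in the choice of the genes, so these p-values support no difference.

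If Egr3 lay below 10 on all arrays, a cell of 8 digits or fewer would have lost a zero in front or at the end. With the zeros put back in front, a reading chosen after the values were seen, the mean decimals were 0.13 ± 0.23 in HEP, 0.04 ± 0.09 in HAL and 0.14 ± 0.10 in Sham (SD, n = 8 each). HAL minus Sham was then -0.11 (exact permutation test, two-sided, p = 0.0415, not adjusted) and HEP minus HAL was 0.10 (exact permutation test, two-sided, p = 0.288, not adjusted). HEP minus Sham was -0.01 with array 8 placed at -0.35, and 0.12 with it at 0.65, the same decimals a whole unit higher, where HEP minus HAL was 0.22. Both readings use the same fact, that 2 HAL cells had 9 digits against 6 in HEP and 6 in Sham. Read near 10, the 9-digit cells lie from 9.12 to 9.41, but for HEP array 8 and HAL array 2. The 8-digit cells lie from 10.10 to 10.97. With a zero in front they lie from 0.0101 to 0.0972, next to the lowest 9-digit decimals at 0.1174. If zeros were lost in this way, the 0.90 of HAL minus Sham and its p-values near 10 are a misreading. A zero in front places any 8-digit cell there, and no cell holds the integer part, so no direction is given for Egr3.

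**Figure D4:**
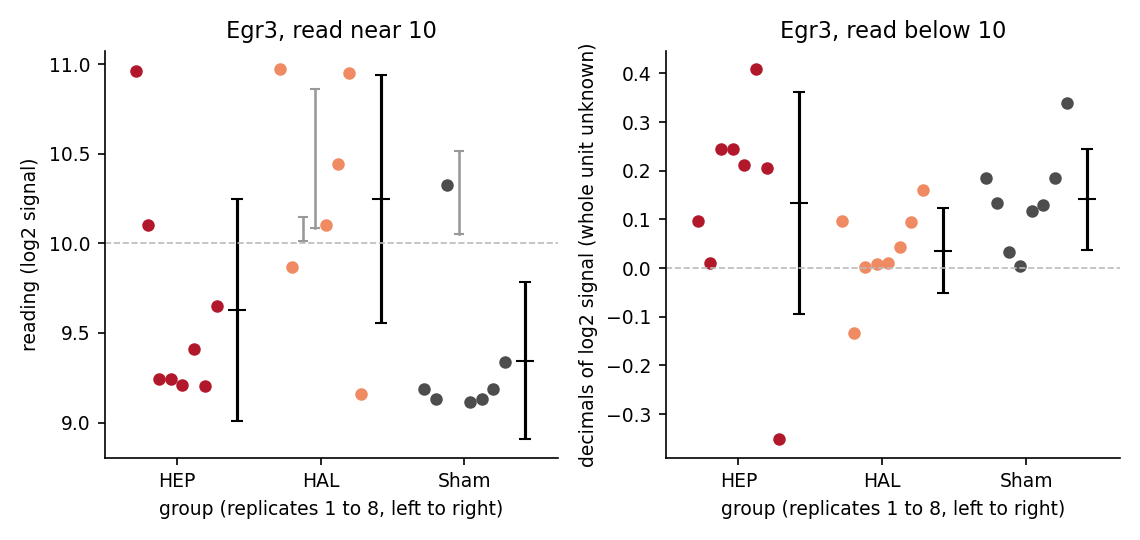
Egr3 on the arrays of HEP, HAL and Sham, by replicate number from left to right, read near 10 (left, log2 signal) and read below 10 with zeros put back in front (right, decimals of the log2 signal); points are readings, black bars are mean and SD, and grey bars join the 2 values of a short cell if its signal is from 10 to 11. HAL has the highest mean on the left and the lowest on the right.

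The probes most like Egr3 as read near 10, of 1151 with at least 18 shared arrays, were Zfp787 (r 0.65 over 19 arrays), Xpo1 (0.60 over 19) and Ptprd (0.60 over 20). These values rest on the reading near 10.

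Other immediate early genes were then compared, from a list of 51 genes of which 46 had a probe with a single symbol. Of their 72 probes tested, 1 was called higher in HEP minus Sham and 1 in HAL minus Sham, 0 were called lower, and none passed in HEP minus HAL. Both were near 10, where 2.18% of all probes passed in HEP minus Sham, against 0.673% of probes with no cell of 9 digits and 0.03% of probes below 10. The 12 probes near 10 had a median difference of 0.32 in HEP minus Sham, with 11 above 0, against -0.004 and 49.3% above 0 over all 2526 probes near 10. In HAL minus Sham the median was 0.23, with 8 above 0, against -0.03 and 44.5% over all. Of 11 list probes with no cell of 9 digits 5 were above 0 in HEP minus Sham and 6 in HAL minus Sham, with medians of -0.0001 and 0.0075. Below 10 it was 30 and 33 of 49 list probes, with medians of 0.04 and 0.06, against 52.3% and 55.1% of all probes below 10. Both comparisons use the same Sham arrays. The list, like those below, was chosen with earlier results of these data known, so its counts and p-values support no difference.

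Gadd45g, a stress-induced regulator of growth arrest, was called higher in HEP as read near 10. Probe 1388792_at averaged 10.52 ± 0.64 in HEP (SD, n = 8) and 9.54 ± 0.31 in Sham (SD, n = 8), a difference of 0.98 (SE 0.25; limma, adjusted p = 0.0307), where 1.19% of probes near 10 rose. Of the HEP readings 7 of 8 lay at 10 or above, with a median of 10.88, against 0 of 8 in Sham. An 8-digit cell can also be a signal below 10 that lost a zero, as for Egr3. Gadd45g was not read that way, so its direction rests on the reading near 10. In HAL it averaged 10.41 ± 0.56 (SD, n = 7), 0.87 above Sham (limma, adjusted p = 0.0568). Over each array left out in turn its difference in HEP minus Sham ran from 0.92 to 1.18 and its adjusted p from 0.00122 to 0.0763 (limma), and it did not pass without Sham array 1, 2, 3 or 4 or without HEP array 3, 4, 5, 6 or 7. In HAL minus Sham it passed without HAL array 2, at 1.02, or HAL array 3, at 0.97, and also with arrays centred, with array weights, with only the 2 groups fitted and with the range of 3 to 12 cells (limma, adjusted p = 0.0368, 0.0304, 0.0305 and 0.0363).

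Jun, a subunit of AP-1, was called higher in HAL on probe 1369788_s_at as read near 10. It averaged 10.79 ± 0.11 in HAL (SD, n = 8) and 9.92 ± 0.17 in Sham (SD, n = 6), a difference of 0.88 (SE 0.15; limma, adjusted p = 0.00290), where 1.07% of probes near 10 rose. All 8 HAL readings lay between 10.61 and 11, above all 6 Sham readings, which lay between 9.78 and 10.25, and 0.515% of probes near 10 had no overlap in this direction. In HEP, read on 4 arrays, Jun averaged 10.33 ± 0.45, 0.41 above Sham (limma, adjusted p = 0.264), and with single arrays left out it ran from 0.24 without HEP array 5 (limma, adjusted p = 0.608) to 0.60 without HEP array 8 (limma, adjusted p = 0.0366). HEP minus HAL was -0.47 (limma, adjusted p = 0.536). The short cells of this probe on other HEP and Sham arrays were left out, and no range over them is given. Its 8-digit cells were not read below 10 either. A second Jun probe, 1389528_s_at, was 0.22 above Sham in HEP and 0.29 in HAL (limma, adjusted p = 0.594 and 0.377).

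The remaining early genes near 10 did not pass in either comparison. Mcl1, a survival factor, stood at 0.64 in HEP minus Sham and 0.50 in HAL minus Sham on its probe near 10. A second Mcl1 probe, with no cell of 9 digits, stood the other way, at -0.25 and -0.11. Those values are known only up to whole units. Nfkbia, the inhibitor of NF-kappaB, stood at 0.45 in HEP minus Sham and 0.38 in HAL minus Sham. Bhlhe40, a transcriptional repressor of the clock, stood at 0.46 in HEP minus Sham and -0.22 in HAL minus Sham. Fos, the partner of Jun in AP-1, stood at -0.11 and -0.52.

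**Figure D5:**
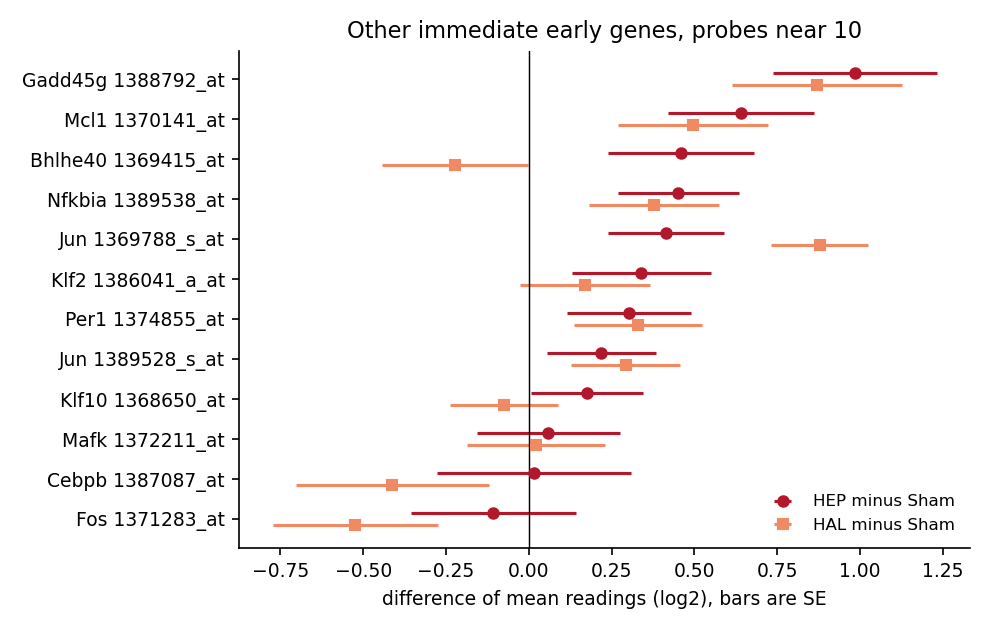
Differences of mean readings (log2, bars are SE) of 12 probes of other immediate early genes near 10, for HEP minus Sham (circles) and HAL minus Sham (squares), which share the Sham arrays. All but Fos lie above 0 in HEP minus Sham, and Jun 1369788_s_at and Gadd45g are the probes that passed, in HAL and in HEP.

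Genes of ERK feedback, which are known to be induced with Dusp6, gave little to read. Of 22 probes of 14 such genes, 0 rose or fell in any comparison, and 18 of them lie below 10, where 0.03% of all probes passed in HEP minus Sham, 0.105% in HAL minus Sham and 0% in HEP minus HAL, with 8 above 0 in HEP minus Sham and 13 in HAL minus Sham. Their smallest unadjusted p belonged in HEP minus Sham to Etv1, an ETS factor downstream of ERK, at -0.44 (limma, adjusted p = 0.193), and in HAL minus Sham to Dusp7, another ERK phosphatase, at 0.44 (limma, adjusted p = 0.147). None of 24 probes of the ERK cascade and its nuclear targets passed. The same was true of 32 probes of other Krüppel-like factors, 21 of them above 0 in HEP minus Sham, and of 8 probes of other EGR genes and their corepressors, 1 of them above 0. Most of these probes are read by decimals only, where few of all probes passed, so their counts of 0 do not set these lists apart.

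The cell types in the preparation were looked at by marker genes. Of 12 endothelial marker genes with a probe, 10 had a probe with no cell of 9 digits, as highly expressed genes do. So had 3 of 7 pericyte, 2 of 5 smooth muscle, 3 of 6 astrocyte, 1 of 5 oligodendrocyte and 1 of 2 red cell marker genes, and none of 11 neuron, 6 microglia and macrophage and 2 neutrophil marker genes. Over 9 marker lists with 87 probes tested, 0 passed in HEP minus Sham and 1 in HAL minus Sham, Slco1a4, an organic anion carrier of brain endothelium, at -0.35 (limma, adjusted p = 0.0221). Neurons also express Egr3, and 4 neuron marker genes had 5 probes near 10. Averaged over these probes as deviations from their means, the arrays ran from -0.27 to 0.42 in HEP, from -0.42 to 0.53 in HAL and from -0.22 to 0.30 in Sham. Their part in the values of Egr3 was not tested.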

How the data were processed

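The members and gene lists were chosen with earlier results of these data known. Per the submitters' processing notes the authors made the values with RMA, which gives log2 signals normalised between arrays, and the sources used here give no version. The deposited table does not hold those log2 values: each of its 746376 cells is a whole number with up to 9 digits, none ending in 0, and the cells are treated here as a score. They were taken as the decimals of log2 signals, and where the integer part was lost is unknown. Per the labels' protocols DNA was labelled with an Affymetrix whole-transcript kit, while the probe names are those of a 3' expression array, and this was not resolved.

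Probes with 1 to 14 cells of 9 digits were read as near 10. A signal outside 9 to 11 is then misread by whole units, and an 8-digit cell of a signal below 10 that lost a zero is read too high. How many probes are misread in these ways is not known, so the shares given over all probes near 10 may include them. In the other probes decimals were placed within 0.5 of their circular mean over all arrays, with 8-digit cells where a probe had no cell of 9 digits and 9-digit cells otherwise. Each probe with at least 2 readings per group was fitted over all 24 arrays with limma 3.58.1 (lmFit and eBayes) in R 4.3.3. P-values were adjusted by Benjamini-Hochberg over all probes of the same reading, with calls at an adjusted p under 0.05. The number of arrays limits the precision.

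The text names every probe of Klf6, Dusp6 and Egr3, then the list members that passed in a contrast or otherwise the member of smallest unadjusted p; the early genes near 10 and the probes most alike are named beside them. The fit was also run on simulated data, whose noise was smaller than most SDs given here, so nothing is read from it. Of 24 same-numbered pairs of arrays across groups 3 had deviations correlated over 0.1, so replicate numbers were not taken as pairs. Median readings were 9.95 on HAL array 2, 9.99 on HAL array 5 and close to 10 on Sham array 3, against 10.12 to 10.20 on the others. Alternatives were other normalisations, ranges, placements, array weights, a replicate block and left-out arrays.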

Additional observations from a re-analysis of the deposited data

Results flagged for a closer look

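On 24 combinations of probe and group the array farthest from the others was compared with the group's range, and chance marks about 1 in 20 of them. Klf6 probe 1387060_at was marked in Sham, where array 3 read 9.58, the only reading below 10, while the other 7 arrays lay close together above 10. Without it and HAL arrays 2 and 5, HEP minus Sham of Klf6 was 0.56. Egr3 probe 1369545_at, read near 10, was marked in Sham too, where the same array 3 read 10.32, the only reading above 10, with the other 6 below. Read below 10, that cell stands at 0.03 and was not marked. Sham array 3 is also 1 of the 3 arrays with the lowest median readings.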

How the results depend on the processing

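Among results of single probes, leaving out arrays aside, 255 were counted as the same, 14 reversed, 9 passed only in the alternative and 3 moved. The same meant a kept direction and side of the threshold. For the members in HEP minus Sham it meant only a shift smaller than the SD of the groups. Egr3 in HEP minus Sham, at 0.28 read near 10 and -0.01 read below 10, thus counts as the same. No named setting reversed Klf6 1387060_at or Dusp6 1387024_at in HEP minus Sham. The range of 3 to 12 cells gave no value for Klf6 1387060_at and Egr3. Where a value below differs, the cause was not tested.

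With the replicate number as a block, probes called near 10 were 61 in HAL minus Sham (94 without), 36 in HEP minus Sham (55 without) and 1 in HEP minus HAL (0 without). For probes with no cell of 9 digits they were 11 in HAL and 1 in HEP minus Sham (23 and 13 without the block), and for probes below 10 they were 0 in both (28 and 8 without), with 2878 and 2339 of limma's unadjusted p under 0.05. Of same-numbered pairs 3 of 24 correlated best with their own number. Array weights called 127 near 10 in HEP minus Sham, 75 in HAL and 118 in HEP with no cell of 9 digits, and 43 in HAL and 39 in HEP below 10. Centring arrays called 41 in HAL and 31 in HEP with no cell of 9 digits, and near 10 in HAL minus Sham 41 higher and 54 lower in place of 27 and 67. Placing decimals around the Sham mean called 0 in all 4 such comparisons with Sham (limma, unadjusted p under 0.05 in 207, 192, 1948 and 1451). Reading short cells with leading zeros called 11 in HAL with no cell of 9 digits and 0 in HEP below 10, robust eBayes called 4 there, and fitting only the 2 groups 0. Without the 3 low arrays 42 were called near 10 in HAL minus Sham, 28 with no cell of 9 digits in HEP minus Sham, and below 10 2 in HAL minus Sham and 2 in HEP minus HAL.

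Egr3 HAL minus Sham was 1.03 with array weights (limma, adjusted p = 0.0487), 0.90 by the exact permutation test (unadjusted p = 0.0187) and -0.11 read below 10, where HEP minus HAL was 0.10. In HEP minus HAL, whose HEP readings chose the genes so that no p supports a difference, the exact permutation test passed for Dusp6 1387024_at at 0.54, Klf6 1387060_at at 0.41 and Klf6 1395557_at at 0.18 (unadjusted p = 0.00217, 0.0182 and 0.0495). It leaves out short cells, and those of HEP arrays 2 and 8, at 10.03 and 10.09 in the low reading, would end the separation of Dusp6. With Egr3 in HAL minus Sham, whose Sham readings also chose the genes, these were 4 of 14 tests under 0.05. Dusp6 1387024_at HAL minus Sham was -0.0202 with the block and -0.0779 with the lowest short cells. Klf6 1388986_at was 0.23 in HAL minus Sham with leading zeros, and in HEP minus HAL 0.0005 with array weights, 0.10 around the Sham mean and 0.0705 without the low arrays. Dusp6 1377064_at was -0.39 in HAL minus Sham with leading zeros, and in HEP minus HAL -0.10 around the Sham mean and -0.0068 without the low arrays. Dusp6 1382778_at was -0.0055 in HAL minus Sham around the Sham mean, and in HEP minus HAL -0.0606 with leading zeros and -0.0222 without the low arrays. In HEP minus Sham Klf6 1388986_at was 0.23 and Dusp6 1377064_at -0.27 with leading zeros, and Dusp6 1377064_at 0.009 around the Sham mean.

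Leaving out each array in turn, calls near 10 ran from 63 to 99 in HAL minus Sham and from 29 (without HEP array 7) to 137 (without HEP array 8) in HEP minus Sham, with no cell of 9 digits from 12 to 32, 2 to 68 and, in HEP minus HAL, 0 to 1, and below 10 from 0 to 40 and 0 to 53. Klf6 1387060_at HEP minus Sham ran from 0.56 to 0.69, its HAL minus Sham from 0.14 to 0.32 and Dusp6 1387024_at HEP minus Sham from 0.52 to 0.66. Dusp6 1387024_at HAL minus Sham ran from -0.0187 to 0.15, below 0 without Sham array 3 or 7 or HAL array 7 or 8, Egr3 HAL minus Sham from 0.76 to 1.12 and HEP minus Sham from 0.09 to 0.45, Klf6 1388986_at HEP minus HAL from -0.14 to 0.0043, and Gadd45g HEP minus HAL from -0.0386 to 0.31.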
